A study of Mus musculus with 2 samples.

Results

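The genes that build new actin filaments were examined in newborn mouse cortex, as a set of 36 genes chosen by name: 9 genes of the Arp2/3 complex, 5 WASP and WAVE proteins, 6 further genes of the WAVE complex, 9 formins, Spire1 and Cobl, 3 Ena/VASP proteins and 2 profilins. The array names 18193 genes alone by at least 1 probe set, and 31 of the 36 were among them. Expression was read on 2 Affymetrix arrays. One array held RNA pooled from the cortex of 3 control mice, genotype MRTFA-/-;MRTF-BFlox/Flox, and the other RNA pooled from 3 double knockout mice, which were MRTF-A-/- and MRTF-BF/F and carried the transgene GFAP-Cre. Both pools are thus labelled null for Mrtfa and floxed for Mrtfb, and the GFAP-Cre transgene, Cre recombinase named for the promoter of an astrocyte and radial glia gene, is what the labels set between them. Age is given as postnatal day 0 for both pools, except that the description of the double knockout sample gives day 1.

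Each group had 1 array and no replicate, so differences were not tested and none can be set against the spread between animals. The number of arrays limits the precision of every value. All differences are log2 values, the double knockout signal less the control signal. A probe set is called readable here when its signal reached a floor of 178.9 in both pools. Where a gene had several probe sets, its value came from the brightest, and the SD given is over its readable probe sets, not over animals. In a pooled tissue, fewer cells of a type and less RNA per cell cannot be told apart.

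Actin nucleation is the step in which the first subunits of a filament are brought together. The Arp2/3 complex starts a new filament as a branch on the side of an old one, and is switched on by WASP and WAVE proteins, the latter held in a five-part complex that answers to the GTPase Rac. Formins, Spire and cordon-bleu start unbranched filaments, Ena/VASP proteins lengthen filaments at their growing ends, and profilin delivers the actin monomers. In developing cortex these proteins shape the lamellipodia and filopodia of growth cones and of migrating neurons. MRTF-A and MRTF-B, encoded by Mrtfa and Mrtfb, act with the transcription factor SRF and are held back by monomeric actin, which ties SRF target genes to the state of the filaments made by this machinery.

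The labelled genes were read first. Mrtfb read 3359 in the control pool and 2482 in the double knockout pool, 1.36-fold lower, averaging -0.33 ± 0.15 (SD, 2 probe sets). Mrtfa, labelled null in both, read 601.6 and 262.4, 2.30-fold lower on 1 readable probe set. The labels set no difference in Mrtfa, and only 5 of 11634 measured genes were at least 2-fold lower. The source of this Mrtfa difference was not tested. Srf read 582.3 and 471.1, 1.24-fold lower, averaging -0.275 ± 0.05 (SD, 2 probe sets). No source used here says whether these probe sets lie in the deleted parts. Cortical excitatory neuron markers were present in both pools: 7 of 9 were measured, among them Neurod6 at 4572 and 4738 and Tbr1 at 1553 and 1720. Their summed signal was 15330 and 14670, and Slc17a7, the vesicular glutamate transporter, had the largest difference among them, at 4498 and 3080 (-0.55).

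The actin nucleation genes differed little between the pools. Of the 31 genes with a probe set of their own, 29 were measured, that is, read at the floor or higher in at least 1 pool, and all 29 did so in both pools. Among the 29, 18 were higher and 11 lower in the double knockout pool, against 52.9% higher and 47.1% lower of all 11634 measured genes. The median difference was 0.04 against 0.01 for all measured genes, and the differences ran from -0.45 for Fmnl1 to 0.15 for Fmnl2. A difference within 0.1 log2 in either direction was found for 22 of the 29, or 75.9%, compared with 48.4% of all measured genes. At least 1.2-fold, 2 members were lower and 0 higher, against 8.34% lower and 5.6% higher of all measured genes. No member reached 1.5-fold, which 1.14% of all measured genes did.

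**Figure D1:**
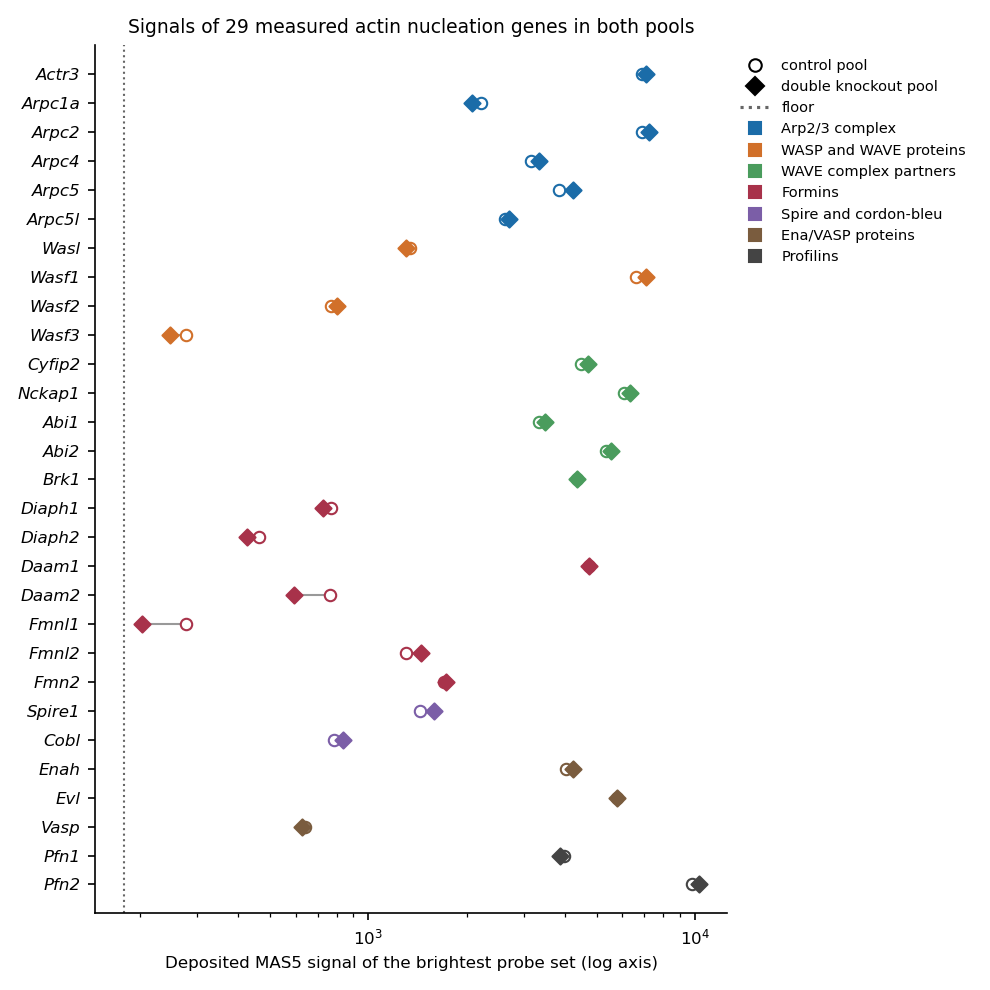
Deposited MAS5 signal (horizontal, log axis) of the brightest probe set of each of the 29 measured members in the control pool (open circle) and the double knockout pool (filled diamond), coloured by role, with the signal floor of 178.9 as a dotted line. The symbols lie close together or overlap for most genes, and are farthest apart for Fmnl1 (277.5 and 203.4) and Daam2 (763.6 and 593.5).

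Most of the set was bright, and bright genes varied less on these arrays. When the 11012 genes with a readable probe set were split by mean signal into 3 classes of equal size, 21 members fell in the bright class, 5 in the middle class and 3 in the dim class. In the bright class the SD of the differences was 0.06 over the members and 0.13 over all 3671 genes. Within 0.1 log2 lay 18 of the 21 bright members, or 85.7%, and 61.7% of all genes in that class. In the middle class 4 of 5 members and 49.7% of all genes did so, and in the dim class 0 of 3 and 36.3%. Of those 21 members 16 were higher, or 76.2%, in a class where 65.4% of all genes were higher. The median there was 0.05 for the members and 0.04 for all genes. After loess centring, which removes a trend with signal, the median was 0.01 over all 29 members and 0.0051 over all measured genes.

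**Figure D2:**
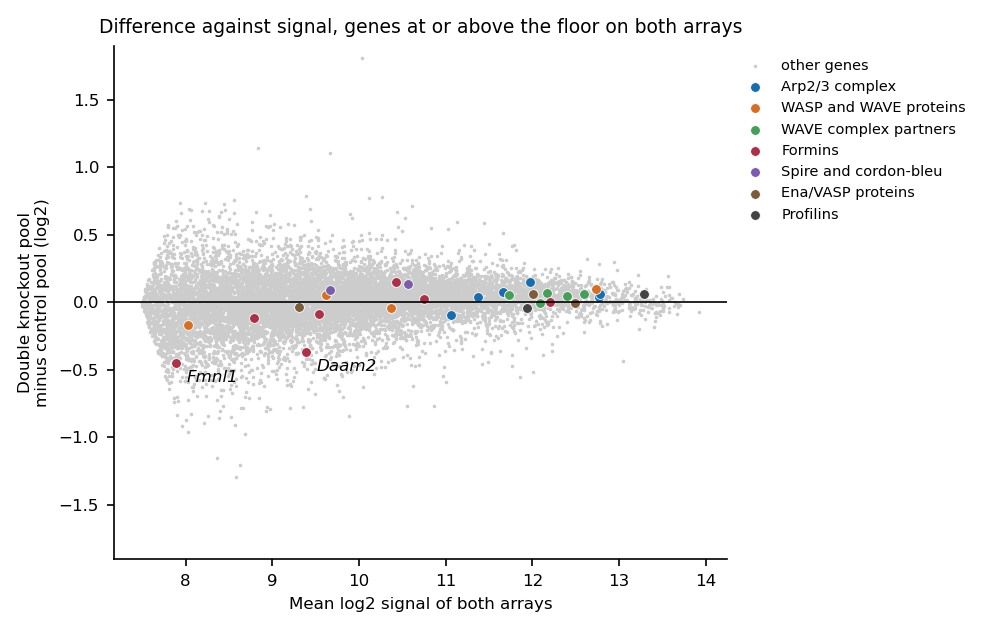
Difference between the pools (vertical, log2) against the mean log2 signal of both arrays (horizontal) for every gene read above the floor in both pools, with members coloured by role and the rest in grey. The members lie mostly to the right, near 0, and Fmnl1 and Daam2 are the members at -0.45 and -0.37.

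The Arp2/3 complex was measured through 6 of its 9 genes, and 5 of the 6 were slightly higher in the double knockout pool, with a median of 0.05. In their bright class 65.4% of all genes were higher, with a median of 0.04. With the mean over measured probe sets 4 of the 6 were higher and 2 lower, and 51.7% of all measured genes were lower. Actr3, which encodes Arp3, one of the actin-related proteins that stand in for the first filament subunits, read 6903 in the control pool and 7094 in the double knockout pool. Its 3 probe sets disagreed in sign and averaged -0.02 ± 0.05 (SD, 3 probe sets). Arpc2, which encodes a scaffold subunit that holds the mother filament, read 6888 and 7219, a difference of 0.06. Arpc4, the other subunit of that scaffold, read 3159 and 3331, averaging 0.04 ± 0.04 (SD, 2 probe sets). The paralogous subunit genes Arpc5 and Arpc5l were both a little higher. Arpc5 read 3823 and 4244, the largest Arp2/3 difference at 0.15 on 1 readable probe set, and Arpc5l read 2619 and 2700, with a mean of 0.06 ± 0.05 (SD, 3 probe sets). Arpc1a, which encodes the propeller-shaped subunit that contacts WASP proteins, read 2213 and 2080 and was the only measured Arp2/3 gene lower on its brightest probe set, at -0.09. The values for its neighbour Arpc1b, which follows it directly among the protein-coding genes of chromosome 5, were not used, because both probe sets that name it also name another gene. Actr2 and Arpc3 had no probe set naming them alone. Of all genes in the bright class, to which all 6 belong, 4.52% reached 1.2-fold, and none of the 6 did.

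Several promoters of Arp2/3 genes hold a sequence that the choice of genes did not use. Promoter windows from RefSeq on GRCm38.p6, reaching from 250 bases before a gene's start to 50 after it, were found for 30 of the 36 members. The letters CCGGAAG, a core sequence bound by transcription factors of the ETS family, were searched on either strand. They stood in 6 of the 30 member promoters, or 20%, and in 12.9% of the 17492 protein-coding genes with a window. By role, they stood in 1 of the 22 other members' promoters (Wasl) and in 5 of 8 Arp2/3 promoters. In 4 of the 5 a match began within 25 bases before the start: 8 bases before it in Actr3, 11 in Arpc3, 12 in Arpc4 and 25 in Arpc1a. In Actr2 the match farthest upstream began 124 bases before the start, and another, on the other strand, began at base 10 counted from the start. Actr3 and Arpc3 also held a further match, 86 bases before the start and at base 21 counted from it. These further matches are not printed below. The windows are shown 5′ to 3′ on the gene's strand with the match, or CTTCCGG where it lies on the other strand, in capitals. They cover chr1:125435719-125435745 (minus strand) for Actr3, chr5:122391857-122391883 (plus) for Arpc3, chr6:113378091-113378117 (plus) for Arpc4, chr5:145083834-145083860 (plus) for Arpc1a and chr11:20113059-20113085 (minus) for Actr2.
Actr3: ccacccggaaCCGGAAGtgggagcgat
Arpc3: gagcaagtcaCCGGAAGtgcgtttatt
Arpc4: atggtccagcCCGGAAGtgctgtcgga
Arpc1a: gctccggtcaCTTCCGGgatctgtcag
Actr2: aagcgcagccCCGGAAGcagaacgagg
The motif was singled out after the matches were seen, and a match is a description of the letters, not of a bound factor. Only this motif was split by role, and the share over all genes was not matched for CpG content. The 3 of these genes that were measured differed by 0.04 (Actr3), 0.07 (Arpc4) and -0.09 (Arpc1a).

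Matches to the CArG box, the site that SRF binds, were searched in the same windows because MRTF-A and MRTF-B work through SRF. A match on either strand stood in 1 of the 30 member promoters, that of Arpc4, and in 1.76% of all protein-coding genes with a window. The Arpc4 match began 250 bases before the start, at the edge of the window, and is shown beside the pair of matches in the Srf promoter, which begin 82 and 62 bases before its start. The capitals mark the CArG boxes, in chr6:113377863-113377892 (plus strand) for Arpc4 and chr17:46556195-46556264 (minus strand) for Srf.
Arpc4: CCTAATTTGGtgcccaacctgaggtcgggc
Srf: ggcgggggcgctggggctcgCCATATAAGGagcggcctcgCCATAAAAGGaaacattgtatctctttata
Srf was 1.24-fold lower in the double knockout pool, and Arpc4 was 1.05-fold higher. The member promoters were also rich in CpG beside those of all protein-coding genes. That background was not limited to genes measured on these arrays. The observed-over-expected CpG ratio had a median of 0.87 in the 30 members and 0.61 in all protein-coding genes, and the ratio was at least 0.6 in 24 of 30 members and in 50.9% of all genes. GGGCGG, the GC box, stood in 22 of 30 member promoters and in 49.2% of all, CCAAT in 10 of 30 and in 42.3%, and TATAAA in 0 of 30 and in 14.8%.

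Among the activators of Arp2/3, the WASP and WAVE genes went both ways, with 2 of 4 measured higher and a median of 0.0034. Wasf1, which encodes WAVE1, the WAVE protein known from brain, read 6610 in the control pool and 7092 in the double knockout pool, a difference of 0.10. Wasf2, which encodes the widely expressed WAVE2, read 770.4 and 800.4, with a mean of 0.02 ± 0.05 (SD, 2 probe sets). Wasf3, for WAVE3, read 276.3 and 246.9, close to the floor, and differed by -0.17. Wasl, for N-WASP, which answers to the GTPase Cdc42, read 1339 and 1302. All 3 of its readable probe sets were lower, with a mean of -0.11 ± 0.09 (SD, 3 probe sets). Was, the WASP gene of blood cells, stayed under the floor in both pools, at 107.6 and 81.8. After quantile normalization or loess centring the median of this group was just below 0, at -0.0024 and -0.01. Over all genes it was 0.012 and 0.0051.

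The partners of WAVE in its complex varied least of any role with more than 3 measured genes. All 5 measured genes lay within 0.1 log2, 4 were higher, and the median was 0.05. All 5 fell in the bright class, where 61.7% of all genes lay within 0.1 log2 and 65.4% were higher. Cyfip2, which encodes the Rac-binding subunit, read 4490 in the control pool and 4721 in the double knockout pool, with a mean of 0.02 ± 0.07 (SD, 2 probe sets). Nckap1, for Nap1, the large scaffold beside it, read 6077 and 6342, a difference of 0.06. Abi1 and Abi2 encode the Abl-interactor subunits. Abi1 read 3332 and 3465, but over its probe sets the mean was -0.03 ± 0.10 (SD, 3 probe sets). Abi2 read 5340 and 5524, and all 3 of its probe sets were higher, averaging 0.12 ± 0.13 (SD, 3 probe sets), the dimmest of them at 0.27 (726.6 and 878.4). Brk1, the smallest subunit, read 4349 and 4345, a difference of -0.0048. Cyfip1, the paralogue of Cyfip2, had no probe set naming it alone.

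**Figure D3:**
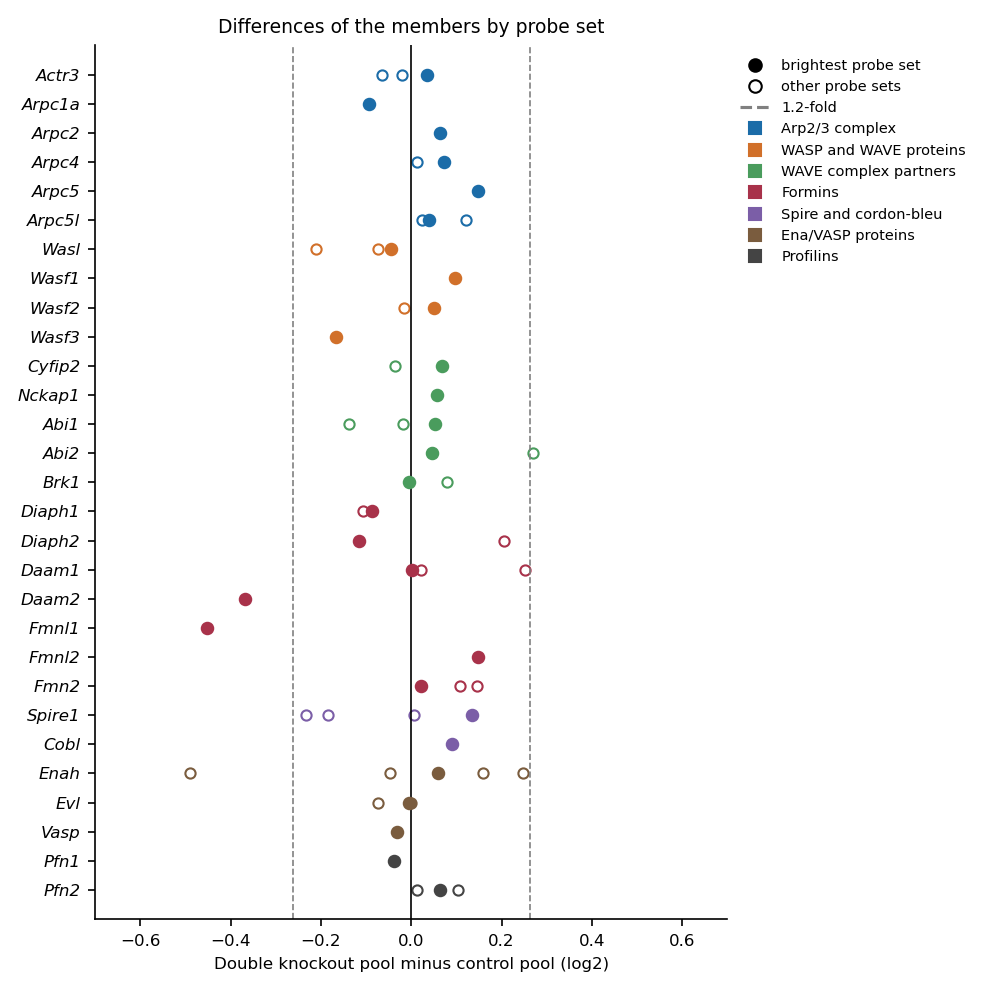
Difference between the pools (horizontal, log2) for each measured member, with the brightest probe set filled, other readable probe sets open, and dashed lines at 1.2-fold in each direction. The filled points of Fmnl1 (-0.45) and Daam2 (-0.37) lie outside the dashed lines, as do 1 open point each of Enah (-0.49) and Abi2 (0.27).

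Formins were the role with the widest spread, from -0.45 to 0.15, and held both members that reached 1.2-fold. Their median was -0.09, with 3 of 7 measured genes higher and 4 lower. With quantile normalization or loess centring 1 was higher and 6 were lower, because Daam1 and Fmn2 moved from just above 0 to just below it. The formin median was above 0 with the mean over measured probe sets (0.04, 4 of 7 higher), with the second brightest probe set (0.18, 3 of 4 higher) and under a floor at the 75th percentile (0.0017, 3 of 5 higher). Of all genes, 46.6% were lower with quantile normalization and 48.6% with loess centring. The share lower was 51.7% with the mean over measured probe sets, 54.4% with the second brightest probe set and 39.8% under that floor. Fmnl1, a formin known mainly from white blood cells, read 277.5 in the control pool and 203.4 in the double knockout pool, 1.37-fold lower, on a single probe set. Both signals were near the floor, and in log2(signal + floor) the difference was -0.26, under 1.2-fold. Its relative Fmnl2, known for lamellipodia, went the other way, from 1306 to 1451, a difference of 0.15 on its only probe set. Fmnl3 had no probe set naming it alone.

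Daam2, a formin of Wnt signalling known in oligodendrocyte precursors, read 763.6 in the control pool and 593.5 in the double knockout pool, 1.29-fold lower. That value rests on 1 probe set with the suffix for several transcripts, and the other probe set of Daam2 stayed under the floor at 56.8 and 56.5. Its paralogue Daam1 read 4733 and 4751, with a mean of 0.09 ± 0.14 (SD, 3 probe sets), so that only Daam2 of this pair passed 1.2-fold on its brightest probe set. In the middle class by signal, where Daam2 lies, 11.7% of all genes reached 1.2-fold, and in the dim class, where Fmnl1 lies, 23.1% did.

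Markers of other cell types moved between the same pools. The summed signal of the 9 measured oligodendrocyte markers of 11 went from 20259 in the control pool to 16409 in the double knockout pool, with 8 of 9 lower and a median of -0.32. Of that list the myelin gene Mbp alone went from 9809 to 7286, while the lineage genes Olig1 and Olig2 differed by 0.04 and -0.05 and the precursor gene Cspg4 by -0.20, averaging 0.0071 ± 0.29 (SD, 2 probe sets). The 8 measured striatal neuron markers of 10 went from 11620 to 9762, with all 8 lower. The 13 measured microglia and leukocyte markers of 16 went from 9162 to 10563, with 9 higher, 4 lower and a median of 0.22. The brightest of them, Csf1r and Coro1a, averaged -0.0012 ± 0.13 (SD, 3 probe sets) and -0.0035 ± 0.37 (SD, 2 probe sets). The others with several readable probe sets, C1qb and Laptm5, averaged 0.21 ± 0.14 and 0.03 ± 0.07 (SD, 3 probe sets each). Ptprc, Itgam and Cd52 of that list were not measured. All 11 meningeal and fibroblast markers were higher on their brightest probe sets, from a sum of 10926 to 13465. Pdgfra gave the largest signal of that list in both pools, at 3129 and 3475. Its probe sets averaged -0.02 ± 0.24 (SD, 2 probe sets). The medians of the remaining lists were smaller, at 0.06 for cortical excitatory neurons, 0.05 for astrocytes, -0.04 for endothelium and pericytes and -0.11 for progenitors. Of the 9 astrocyte markers 6 were higher and 3 lower. Gfap, whose promoter names the transgene, had the largest difference, at 1822.5 and 2753, 1.51-fold higher, averaging 0.58 ± 0.01 (SD, 2 probe sets). At least 1.5-fold in either direction was reached by 1.14% of all measured genes. The part of these shifts in the values of Daam2, Fmnl1 or any other member was not tested.

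The diaphanous formins are opened by small GTPases. Diaph1 read 769.7 in the control pool and 726.6 in the double knockout pool, and both readable probe sets were lower, with a mean of -0.10 ± 0.01 (SD, 2 probe sets). Diaph2 read 461.7 and 427.1, but its other probe set read 248.8 and 287.5, and the mean was 0.04 ± 0.23 (SD, 2 probe sets). Diaph3, known from dividing cells, stayed under the floor at 67.0 and 64.7. Fmn2, a formin that works together with Spire proteins, read 1706 and 1735, and all 3 of its probe sets were higher on the centred scale, with a mean of 0.09 ± 0.06 (SD, 3 probe sets).

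Spire1 and Cobl, which nucleate filaments by lining up several monomers on repeated actin-binding motifs, were both higher on their brightest probe sets. Spire1 read 1445 in the control pool and 1589 in the double knockout pool, a difference of 0.13. Its probe sets went both ways. The next brightest read 1070 and 912.5, a difference of -0.23, and the mean over readable ones was -0.07 ± 0.17 (SD, 4 probe sets). The dimmest read 131.8 and 209.4, the first under the floor. Cobl, cordon-bleu, known for branching of dendrites, read 786.4 and 839.5, a difference of 0.09 on 1 readable probe set.

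Ena/VASP proteins, which keep filament ends growing and are known for filopodia of cortical neurites, lay within 0.1 log2 for all 3 genes. Evl read 5763 in the control pool and 5757 in the double knockout pool, with a mean of -0.03 ± 0.04 (SD, 3 probe sets). Vasp read 641.4 and 629.1, a difference of -0.03 on its only probe set. Enah, which encodes Mena, read 4044 and 4222 on its brightest probe set, a difference of 0.06. Of the genes in the set, Enah had the widest spread over probe sets: they ran from -0.49 to 0.25, averaging -0.01 ± 0.29 (SD, 5 probe sets). The lowest was its dimmest readable one, at 260.9 and 186.1, and the highest read 534.4 and 636.2. The transcripts that each of these Enah probe sets reads were not looked up here.

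The profilins, which bind actin monomers and hand them to formins and Ena/VASP proteins, were bright and nearly level. Pfn1, the widely expressed profilin, read 3967 in the control pool and 3871 in the double knockout pool, a difference of -0.04. Pfn2, the main profilin of neurons, read 9791 and 10257, and all 3 of its probe sets were higher, averaging 0.06 ± 0.05 (SD, 3 probe sets). The paralogues thus differed in sign by a margin no wider than the pooled probe set SD of 0.14 over members.

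Probe sets of the same gene often went both ways. Among the 17 members with 2 or more readable probe sets, all probe sets were higher for 6 genes (Arpc4, Arpc5l, Abi2, Daam1, Fmn2 and Pfn2), all were lower for 3 (Wasl, Diaph1 and Evl) and 8 had probe sets in both directions. The share with both directions was 47.1% of these members and 56.9% of the 4858 genes of the array with as many probe sets. The pooled SD over probe sets was 0.14 for the members and 0.18 for all such genes. The absolute differences on the brightest probe set had a median of 0.06, below that SD.

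The wider pathway was described through 7 lists of 96 genes in all, of which 77 were measured. Their median was 0.03, and 46 of them were higher and 31 lower. Of all measured genes 52.9% were higher and 47.1% lower. Of the 77, 4 reached 1.2-fold in the higher direction and 4 in the lower, together 10.4% against 13.9% of all measured genes.

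Upstream of the nucleators, 13 of 18 measured small GTPases and exchange factors were higher, with a median of 0.06. The share higher was 52.9% over all measured genes and 65.4% over all genes of the bright class. Among the GTPases, Rac1 read 7079 in the control pool and 6987 in the double knockout pool, Cdc42 7600 and 8000, and Rhoa 5856 and 5736, differences of -0.02, 0.07 and -0.03. Dock1, a Rac exchange factor, read 567.7 and 382.6, 1.49-fold lower on a single probe set and the lowest difference in the 7 lists. Trio, an exchange factor of axon guidance, read 1730 and 2314, 1.33-fold higher, although its mean was 0.15 ± 0.24 (SD, 3 probe sets). Rhog, a GTPase upstream of Dock1, read 278.7 and 369.1, 1.32-fold higher, and Rhoq was the other gene of the list at least 1.2-fold higher, at 0.28. Rac1, Cdc42, Rhoa and Rhoq are named here after their values were seen.

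Adaptors that bring WASP and WAVE proteins to membranes held no gene past 1.2-fold on its brightest probe set among 16 measured, with a median of 0.06. The largest differences were those of Wipf2, a WASP-interacting protein, at -0.24, of Trip10, a membrane-bending adaptor, at -0.23 and of Grb2 at -0.22. The mean was -0.43 ± 0.26 (SD, 2 probe sets) for Wipf2 and -0.08 ± 0.20 (SD, 2 probe sets) for Grb2. Other Arp2/3 activators and paralogues also held none among 10 measured, with a median of 0.02. Nckap1l, the blood cell paralogue of Nckap1, differed by -0.20, Jmy, a nucleator with its own actin-binding repeats, by -0.19 and Washc5, a subunit of the endosomal WASH complex, by 0.17. The mean for Jmy was -0.07 ± 0.10 (SD, 3 probe sets).

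Genes that hold Arp2/3 back or take branches apart had a median of -0.03 over 9 measured. Arpin, which encodes an inhibitor of Arp2/3 at the leading edge, read 329.9 in the control pool and 263.3 in the double knockout pool, 1.26-fold lower on its only probe set, and was the only gene of the list past 1.2-fold. Coro1a and Coro2b were higher by 0.26 and 0.25 on their brightest probe sets, with means of -0.0035 ± 0.37 (SD, 2 probe sets) and 0.08 ± 0.24 (SD, 2 probe sets). Coro1a also stands on the microglia and leukocyte list.

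Among other formins and nucleator relatives, 5 were measured, with a median of -0.06. Inf2, a formin that also severs filaments, read 1328 in the control pool and 1007 in the double knockout pool, 1.32-fold lower, and its mean was -0.32 ± 0.12 (SD, 2 probe sets). Cobll1, the relative of Cobl, and Fhod3 were higher by 0.13 and 0.09.

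Ligands and partners of Ena/VASP proteins had a median of 0.03 over 11 measured. Lmo7 read 3088 in the control pool and 2435 in the double knockout pool, 1.27-fold lower, with a mean of -0.30 ± 0.06 (SD, 2 probe sets). Lpp, a focal adhesion protein that binds VASP, read 460.9 and 578.2, 1.25-fold higher, with a mean of 0.13 ± 0.15 (SD, 4 probe sets), and Pxn, paxillin, was higher by 0.15. Actin monomer binders other than the listed profilins had a median of 0.01 over 8 measured and none past 1.2-fold, the largest differences being 0.22 for Mtss1 (mean 0.06 ± 0.09, SD, 5 probe sets), -0.16 for the profilin gene Pfn4 and -0.12 for the twinfilin gene Twf2.

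**Figure D4:**
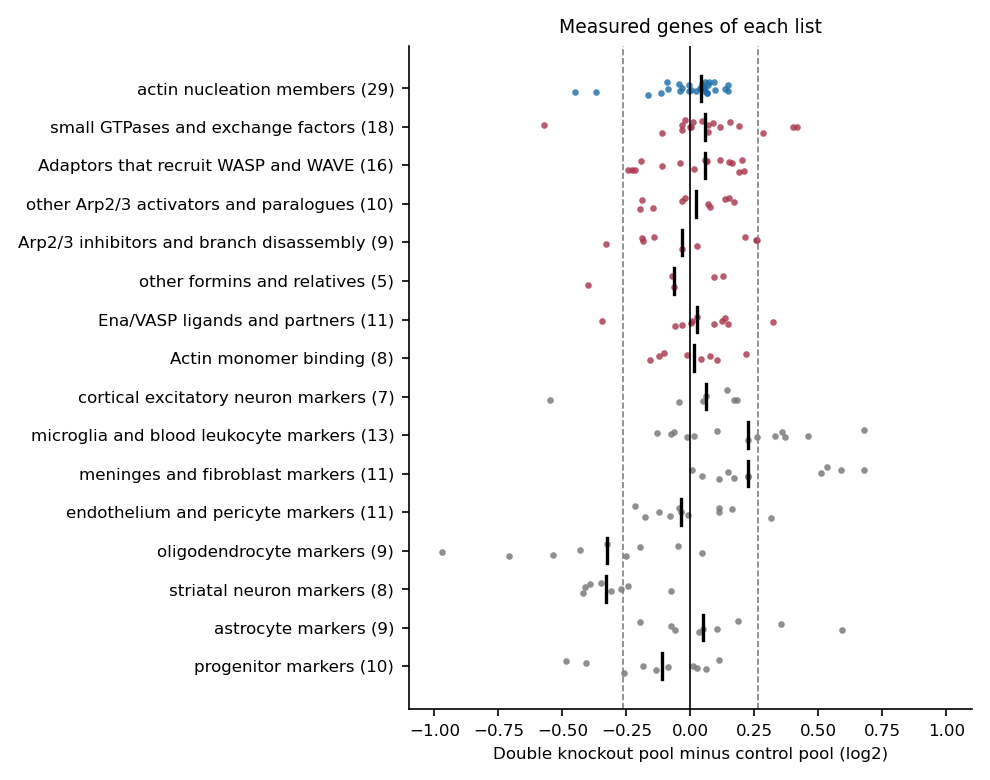
Difference between the pools (horizontal, log2) of each measured gene, by list, with the number measured in brackets, a black bar at the median and dashed lines at 1.2-fold; members are blue, pathway lists red and cell type markers grey. The medians of the members and the pathway lists lie between -0.06 and 0.06, while those of the oligodendrocyte, striatal, microglia and meningeal markers lie at -0.32, -0.33, 0.22 and 0.23.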

How the data were processed

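RNA pooled from 3 mice per group was read on 1 Affymetrix array per group. The authors deposited 1 linear intensity signal per probe set and array, made with MAS5 according to the submitters' processing notes. The sources used here do not give its version or scaling target. Of 45037 probe sets other than controls, 34945 name 1 gene in the platform annotation, 932 several and 9160 none, and only the first were used. Signals of the double knockout pool were centred by 0.0037 log2, then signals under the 50th percentile of both arrays (178.9) were set to it. Printed signals are as deposited. Members, roles and lists were chosen with earlier results of these data known. The genes named are all members, Mrtfa, Mrtfb, Srf and up to 3 genes per pathway list with the largest absolute difference measured on both arrays. Others are said to be named after their values were seen, apart from the cell type markers, named as examples. Python 3.11.15, numpy 2.4.6, pandas 2.3.3, statsmodels 0.14.6 and matplotlib 3.10.9 were used, and the code was tested on simulated data. Of 10 alternatives the closing section gives the effect.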

Additional observations from a re-analysis of the deposited data

How the results depend on the processing

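The counts and medians over the members were recomputed under 10 alternatives. The member median of 0.04 was 0.0043 after quantile normalization, where the median over all genes was 0.012. With the second brightest probe set it was -0.016, and -0.018 over all genes. There 8 of 17 members were higher and 9 lower, and 54.4% of all 5222 genes were lower. The 2 members at least 1.2-fold lower became 1 with the floor at the 75th percentile, with log2(signal + floor) and without _s_at and _x_at probe sets, and 0 with the second brightest probe set, since neither Fmnl1 nor Daam2 has a second measured one. With the floor at the 25th percentile or no floor they became 3, the third being Was at -0.40 from signals of 107.6 and 81.8. The 8 pathway genes past 1.2-fold became 13 with the floor at the 25th percentile, 17 with no floor, 4 under a floor at the 75th percentile and 4 with log2(signal + floor). The share of all genes past 1.2-fold moved with these counts, from 13.9% to 24.2%, 33.5%, 6.80% and 7.47%. The cause was not tested. Of 274 member values under the alternatives 18, in 10 genes, had the other sign. Fmnl1 and Wasf3 were read near the floor, in the dim class, where the SD of the differences over all genes was 0.23 against 0.13 in the bright class. No paired analysis was possible because each group has 1 array.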
